A study of Mus musculus with 24 samples.

Results

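The glycolytic enzymes considered here turn glucose 6-phosphate into pyruvate and lactate. The list named 10 genes, and a probe was taken as a member where the platform annotation gave it exactly 1 of their symbols. By this rule 8 genes were measured, through 11 probes, out of 6970 named genes on both array platforms together. The first platform carried 9 probes for Aldoa (probes 6038 and 6948), Aldoc (5658), Gapdh (4629), Pgk1 (1525), Pgam1 (1061), Pkm (1271 and 1303) and Ldha (6133). The second carried 1 probe each for Tpi1 (879) and Pkm (5176). Gpi1 and Eno1 had no probe that met the rule, and 4 probes that listed Gapdh beside other symbols were left out.

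Glycolysis runs in the cytosol of every cell and yields ATP without oxygen. Its first steps spend ATP and end with aldolase, which splits the sugar into a pair of triose phosphates. Triose phosphate isomerase, Gapdh and the later enzymes recover ATP and end in pyruvate, which lactate dehydrogenase can reduce to lactate while it regenerates NAD. Mouse embryos soon after implantation take up much glucose and release much of it as lactate. Many of these genes are textbook targets of the hypoxia-inducible factor HIF-1, which binds DNA sites with the core ACGTG.

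Cultured mouse embryos were exposed for 1 h to 40 µM 4-hydroperoxycyclophosphamide (4CP), a form of the alkylating drug cyclophosphamide that needs no activation by the liver. Control embryos were kept in culture at 37 °C without the drug. Total RNA of treated and control embryos was hybridised together on 24 two-channel arrays, 2 on each slide, with treated RNA in channel 1 on 1 slide of a pair and in channel 2 on its partner. Each of 2 value tables of 7680 probes held 12 arrays, which form 3 slide pairs. Whether the 2 arrays of a slide are separate arrays or repeat scans is unstated, so they count as 1 replicate. The sources used here do not give the strain or stage of the embryos, how many were pooled or whether pairs were separate cultures. A p-value below therefore reflects how slide pairs varied, and that variation may be technical. Ratios hold no level, so the tissue could not be checked against its markers, and in whole embryos fewer cells of a type and less RNA per cell cannot be told apart.

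Every value is a log ratio of both channels after each array was centred on its median probe. The log base is unstated and was taken to be 2 or e. A difference of 0.3 is then 1.23-fold in base 2 and 1.35-fold in base e. A slide pair gives 2 quantities. The turned component is what the slide carrying treated RNA in channel 1 has above its partner, divided by 2. It holds the treatment if swapped slides were deposited as scanned, and its sign then follows the numerator: with channel 1 on top, which is unstated too, positive is higher after the drug. The unturned component is their sum divided by 2, and it holds the dye and probe effects in that case. If the swapped slides had been turned before deposit, the unturned component would hold the treatment. Both are therefore given, and no direction of regulation is drawn from either.

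Because the members moved together in 1 slide pair, the proximal promoters of 4 of them are shown, chosen from windows that hold the HIF core and have a probe on the first platform. Each is 250 bases before to 50 bases after an annotated RefSeq start site (GRCm38.p6), 5′ to 3′ in the direction of the gene. Capitals mark the letters ACGTG on either strand. The windows are chr7:46845554-46845853 (plus strand) for Ldha, chrX:106186850-106187149 (plus strand) for Pgk1, chr7:126799205-126799504 (minus strand) for the second of the 3 Aldoa windows and chr11:78322823-78323122 (plus strand) for the first of the 2 Aldoc windows.
Ldha: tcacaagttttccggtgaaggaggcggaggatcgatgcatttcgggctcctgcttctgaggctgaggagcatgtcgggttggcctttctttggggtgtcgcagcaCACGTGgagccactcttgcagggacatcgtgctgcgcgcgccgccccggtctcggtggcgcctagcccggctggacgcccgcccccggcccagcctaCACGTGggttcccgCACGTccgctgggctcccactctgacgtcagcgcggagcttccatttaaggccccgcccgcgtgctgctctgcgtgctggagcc
Pgk1: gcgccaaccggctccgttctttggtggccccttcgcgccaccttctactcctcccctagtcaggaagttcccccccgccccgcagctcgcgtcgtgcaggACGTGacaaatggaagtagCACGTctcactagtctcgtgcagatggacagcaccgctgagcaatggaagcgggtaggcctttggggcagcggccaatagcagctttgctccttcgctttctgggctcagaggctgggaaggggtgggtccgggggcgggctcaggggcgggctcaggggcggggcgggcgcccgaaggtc
Aldoa: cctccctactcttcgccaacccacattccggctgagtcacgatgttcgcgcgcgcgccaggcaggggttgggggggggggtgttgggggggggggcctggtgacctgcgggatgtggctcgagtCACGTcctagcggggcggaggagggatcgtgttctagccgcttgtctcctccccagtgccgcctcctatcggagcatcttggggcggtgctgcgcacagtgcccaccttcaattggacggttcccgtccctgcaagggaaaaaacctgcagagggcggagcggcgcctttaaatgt
Aldoc: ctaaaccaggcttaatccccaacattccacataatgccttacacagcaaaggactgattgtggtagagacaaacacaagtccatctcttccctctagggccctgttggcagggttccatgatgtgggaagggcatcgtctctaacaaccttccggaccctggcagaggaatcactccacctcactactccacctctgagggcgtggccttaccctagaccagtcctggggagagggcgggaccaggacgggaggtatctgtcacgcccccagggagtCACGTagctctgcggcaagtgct

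The Ldha window held 5 matches, counting CACGTG as a match on each strand, at positions -145, -144, -48, -47 and -34 from a start site at 0, so all upstream. Pgk1 held 2, at -150 and -131. Aldoa held 1 at -126, and Aldoc 1 at position 27, downstream of the start. All 10 listed genes had windows in the table, 17 in all, because several genes have more than 1 annotated start. The core stood in 8 of the 17 windows and in at least 1 window of 7 of the 10 genes, namely Ldha, Pgk1, Aldoa, Aldoc, Gapdh, Pgam1 and Pkm, and not in those of Gpi1, Tpi1 and Eno1. Among all 32851 promoter windows of that length, 19.6% held it. With the first window of each gene alone, 5 of 10 genes held it, against 19.7% of 27025 first windows. Searched the same way on both strands, the GC box letters GGGCGG stood in 11 of the 17 windows (35.7% of all windows), and TATAAA stood in 0 of them (13.6% of all windows). A match of letters is a description of the window and says nothing of binding.

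In pair 1 of the first table, every glycolytic enzyme probe had a positive turned component. Values lay between 0.20 and 0.35, with a median of 0.27, while the median of all 7680 probes in that pair was 0.03 and their 95th percentile 0.19. In pairs 2 and 3 the medians of the same 9 probes were 0.02 and -0.01. The enzymes thus stood together at the upper edge of all probes in pair 1 and spread to both sides of the median probe in pair 3, where 15.4% of probes were higher than Aldoc and 88.4% higher than Pkm 1271. In pair 2 Aldoc stood near the top (1.00% of probes higher), and for the median member 43.4% of probes were higher. No member passed the test over 3 pairs.

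**Figure D1:**
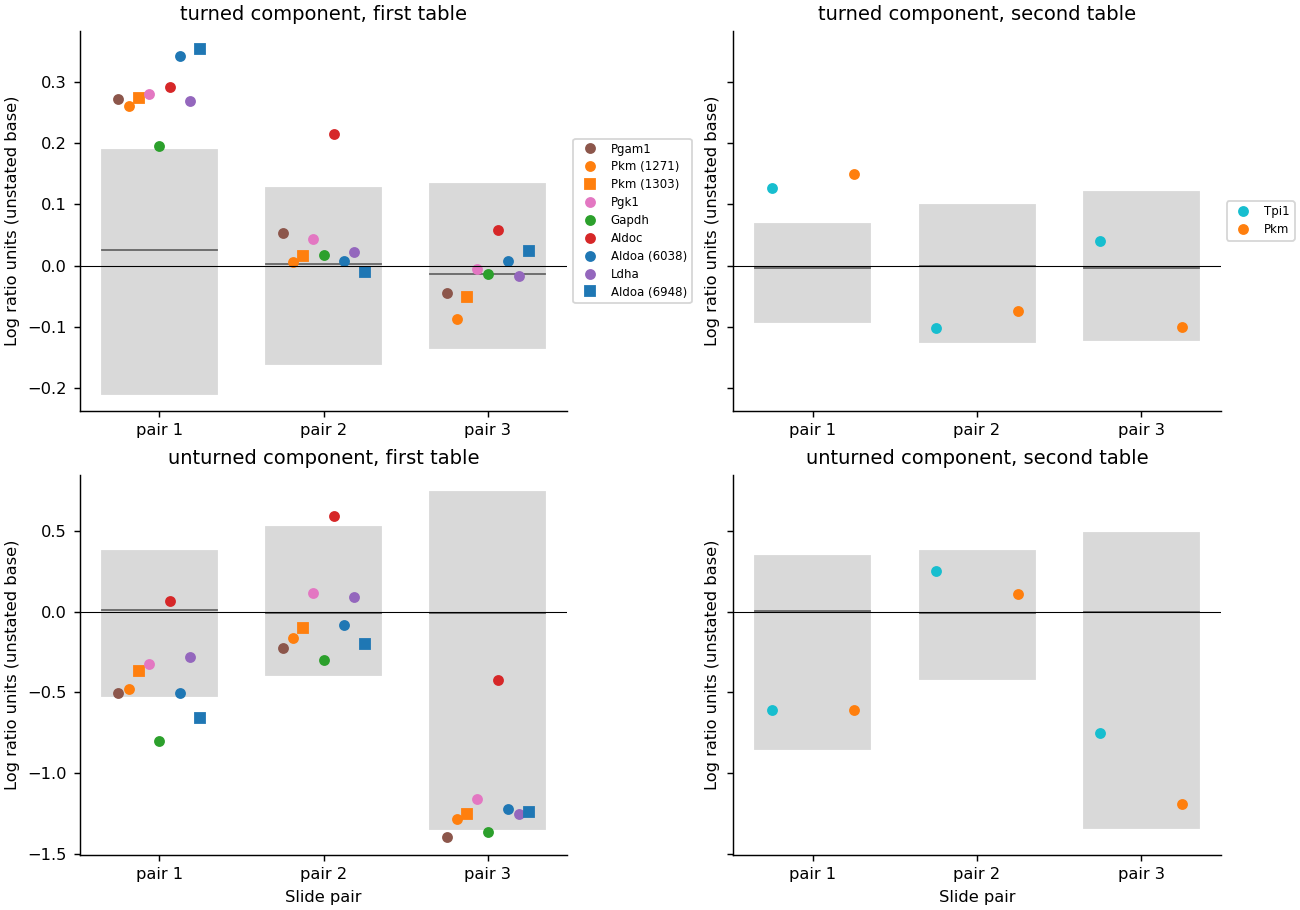
Turned (top) and unturned (bottom) components of the member probes by slide pair, in log ratio units of unstated base, with the first table left and the second right. Each point is 1 probe, grey boxes span the 5th to 95th percentile of all 7680 probes and grey lines their median. All 9 first-table probes and both second-table probes lie above the box in pair 1 of the turned component.

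Aldolase splits fructose 1,6-bisphosphate, and its ubiquitous form Aldoa had the largest turned values of pair 1. Probe 6948 stood at -0.30 where channel 1 carried treated RNA and at -1.01 on the partner slide, and probe 6038 at -0.16 and -0.85. The turned components were 0.35 and 0.34, or 1.28-fold and 1.27-fold in base 2 and 1.43-fold and 1.41-fold in base e. Both probes thus differed little from each other in that pair. In pairs 2 and 3 probe 6948 had -0.01 and 0.02, and probe 6038 had 0.008 in each. The means over 3 pairs were 0.12 ± 0.20 and 0.12 ± 0.19 (SD, n = 3), so the spread exceeded the mean for both.

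Aldoc, the aldolase form best known from brain, behaved unlike the rest. Its slides with treated RNA in channel 1 stood at 0.35, 0.81 and -0.37 in pairs 1, 2 and 3, and the partner slides at -0.23, 0.37 and -0.48. The turned component was 0.29, 0.22 and 0.06, positive in every pair. The mean of 0.19 ± 0.12 (SD, n = 3) had a 95% confidence interval from 0.06 to 0.32 with limma and an unadjusted p of 0.0101, but did not pass over all probes (adjusted p = 0.997). The pair 2 value rested largely on a single array. The arrays with treated RNA in channel 1 read 1.07 and 0.54 there, a gap of 0.53 that was the widest between the 2 arrays of a slide for any member, and the turned component was 0.37 from the first arrays of the slides and 0.07 from the second.

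Gapdh, which oxidises glyceraldehyde 3-phosphate and is often used as a reference gene, had the lowest turned value of the first-table members in pair 1. Its slides stood at -0.605 with treated RNA in channel 1 and at -0.995 on the partner in pair 1, at -0.28 and -0.31 in pair 2 and at -1.38 and -1.35 in pair 3. The turned components were 0.20, 0.02 and -0.01, with a mean of 0.07 ± 0.11 (SD, n = 3, limma adjusted p = 0.997). Only the slides of pair 1 were clearly apart.

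Pgk1 and Pgam1 follow Gapdh in the pathway; Pgk1 makes the first ATP of the pay-off phase and Pgam1 moves the remaining phosphate. In pair 1, Pgk1 stood at -0.04 and -0.60 and Pgam1 at -0.23 and -0.78 on the slides with treated RNA in channel 1 and in channel 2. Their turned components were 0.28, 0.04 and -0.005 for Pgk1 and 0.27, 0.05 and -0.04 for Pgam1. The means were 0.11 ± 0.15 and 0.09 ± 0.16 (SD, n = 3). For both, as for Aldoa, the value of pair 1 lay far above those of the other pairs.

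Pkm, pyruvate kinase, makes the last ATP, and Ldha reduces pyruvate to lactate. On the slides of pair 1 Ldha stood at -0.01 and -0.55, and the Pkm probes 1271 and 1303 stood at -0.22 and -0.74 and at -0.09 and -0.64. Ldha had turned components of 0.27, 0.02 and -0.02. The Pkm probes had 0.26, 0.006 and -0.09, and 0.27, 0.02 and -0.05. The 2 Pkm probes therefore lay close to each other in every pair, by less than the spread between pairs. The means were 0.09 ± 0.15 for Ldha and 0.06 ± 0.18 and 0.08 ± 0.17 for Pkm (SD, n = 3). Without pair 1 both Pkm means were negative, at -0.04 and -0.02. Those of the other 7 first-table probes were positive, but all except Aldoc lay close to 0. They ran from 0.002 for Gapdh to 0.02 for Pgk1, and Aldoc had 0.14.

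The second table measured other spots, and its members also had their highest values in pair 1. Tpi1, which interconverts the triose phosphates, stood at -0.48 where channel 1 carried treated RNA and at -0.74 on the partner slide. The third Pkm probe stood at -0.46 and -0.76. The turned components were 0.13 and 0.15, or 1.09-fold and 1.11-fold in base 2, and 1.26% and 0.846% of all second-table probes were higher. In pairs 2 and 3 Tpi1 had -0.10 and 0.04 and Pkm had -0.07 and -0.10. The means were 0.02 ± 0.12 for Tpi1 (adjusted p = 0.994) and -0.01 ± 0.14 for Pkm (adjusted p = 0.999) with limma (SD, n = 3). Pkm thus had its highest value in pair 1 on all 3 of its probes. The titles give pair 1 of both tables the same treatment number, and whether both held the same RNA is not stated, so the tables are not counted as independent.

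Single arrays gave the same order as the slides in pair 1. For 9 of 9 first-table probes, both arrays with treated RNA in channel 1 lay above both arrays with it in channel 2, which held for 35.2% of all probes of the table. The corresponding count was 3 of 9 in pair 2 (25.3% of all probes) and 0 of 9 in pair 3 (11.2%). For the second table it was 2 of 2 in pair 1 (12.7%), 0 of 2 in pair 2 (12%) and 1 of 2 in pair 3 (16.7%). Ldha, for example, read 0.05 and -0.08 on the arrays with treated RNA in channel 1 and -0.69 and -0.41 on the others. Taken from the first arrays of the slides alone, the first-table turned components of pair 1 ran from 0.26 to 0.45, and from the second arrays alone from 0.13 to 0.28. Arrays of 1 slide also differed from each other. In pair 1 of the first table the gap between them had a median of 0.15 over the members and reached 0.39, for Aldoa 6948. The wider gap of a probe was larger than its turned component for 5 of the 9 probes (both Aldoa, Pkm 1271, Pgk1 and Ldha). The gap is a whole difference, whereas the turned component is a difference divided by 2, so their scales differ. The slides of Aldoa 6948 stood at -0.30 and -1.01.

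**Figure D2:**
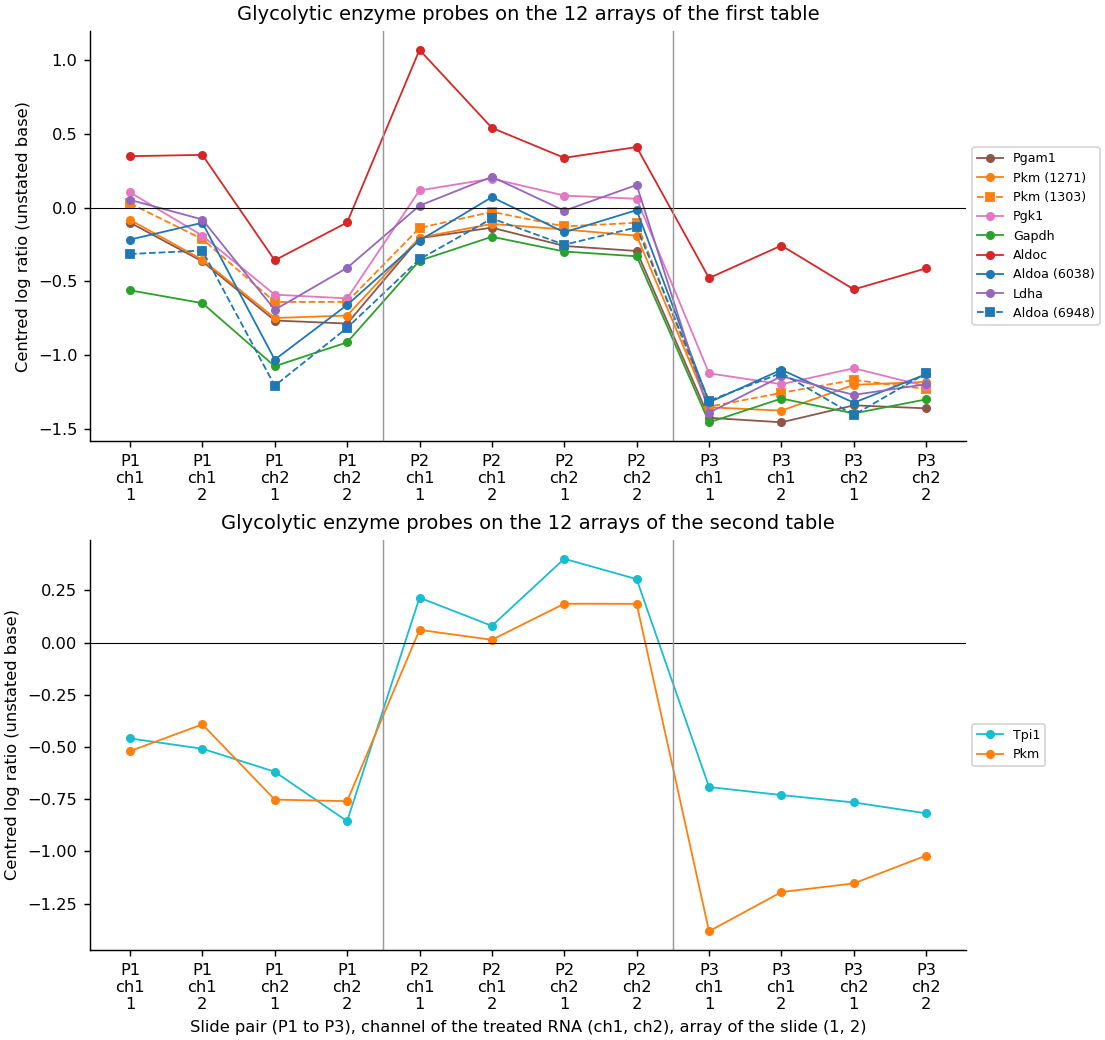
Centred log ratio (unstated base) of each member probe on every array, first table above and second below. Arrays are ordered by slide pair (P1 to P3), channel of the treated RNA (ch1, ch2) and array of the slide, and lines join the values of 1 probe. Within P1 of the first table both ch1 arrays lie above both ch2 arrays for 9 of 9 probes. The step from P2 to P3 is larger than the steps between slides of a pair, which does not hold for every probe from P1 to P2.

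Over 3 pairs no member passed the test of the turned component. It was positive in all 3 pairs for 2 of 9 first-table probes, Aldoc and Aldoa 6038, against 11.4% of all probes, and for 0 of 2 in the second table, against 9.84%. With limma 0 of 9 and 0 of 2 members were called at an adjusted p under 0.05, and the share called among all probes was 0% in the first table (0 of 7680, of which 180 had an unadjusted p under 0.05) and 0% in the second (0 of 7680, with 401). Aldoc was the only member among those with an unadjusted p under 0.05. The 9 means were nevertheless all positive and ran from 0.06 to 0.19 with a median of 0.09, where all probes of the table had a median of -0.005. The share of probes with a higher mean ran from 0.612% for Aldoc to 14.3% for Pkm 1271. These means carry the values of pair 1.

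Without the turn, most first-table members lay below the median probe. The unturned component was negative in pair 1 for 8 of 9 probes, in pair 2 for 6 and in pair 3 for 9, with medians of -0.48, -0.10 and -1.25. It was negative in all 3 pairs for 6 of 9 first-table probes (18.1% of all probes), namely both Aldoa, both Pkm, Gapdh and Pgam1, and for 0 of 2 in the second table (17.9%). Both second-table probes were positive in pair 2, at 0.25 for Tpi1 and 0.11 for Pkm. For 4 of 9 first-table probes all 12 arrays lay below the median probe of their array, which held for 7.71% of all probes, and this was so for 0 of 2 in the second table (7.4%).

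Gapdh was the 1 member called without the turn, with values of -0.80, -0.30 and -1.36 and a mean of -0.82 ± 0.53 (SD, n = 3, limma adjusted p = 0.038). On the first platform 2.85% of all probes were called, all 219 of them negative, against 1 of 9 members. The call was lost without pair 1 (mean -0.83, adjusted p = 0.457) and with values as deposited (mean -0.39, adjusted p = 0.407). Next came Aldoa 6948 at -0.70 ± 0.52 (adjusted p = 0.083) and Pgam1 at -0.71 ± 0.61 (adjusted p = 0.085), which did not pass. Pkm, Aldoa 6038, Ldha and Pgk1 lay between -0.64 and -0.46, with adjusted p from 0.115 to 0.286. Aldoc alone had a positive mean, 0.08 ± 0.51, with 0.06, 0.59 and -0.43 in pairs 1, 2 and 3 (adjusted p = 0.943). In the second table Tpi1 had -0.37 ± 0.54 (adjusted p = 0.425) and Pkm -0.56 ± 0.65 (adjusted p = 0.296), where 0% of all probes were called (0 of 7680, of which 1254 had an unadjusted p under 0.05).

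In size, the unturned component exceeded the turned one for 8, 9 and 9 of 9 first-table probes in pairs 1, 2 and 3, the exception being Aldoc in pair 1. The median ratio of their sizes, turned over unturned, was 0.68, 0.16 and 0.02 in these pairs. Across all first-table probes, which share slides and are not replicates, both components correlated within pairs 1, 2 and 3 with Pearson's r of -0.46, 0.37 and 0.15 (n = 7680). In pair 1 of that table a probe with a low unturned value therefore tended to have a high turned one, as the members other than Aldoc had. In the second table the same r were 0.10, 0.12 and 0.14, without such a slope in pair 1.

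**Figure D3:**
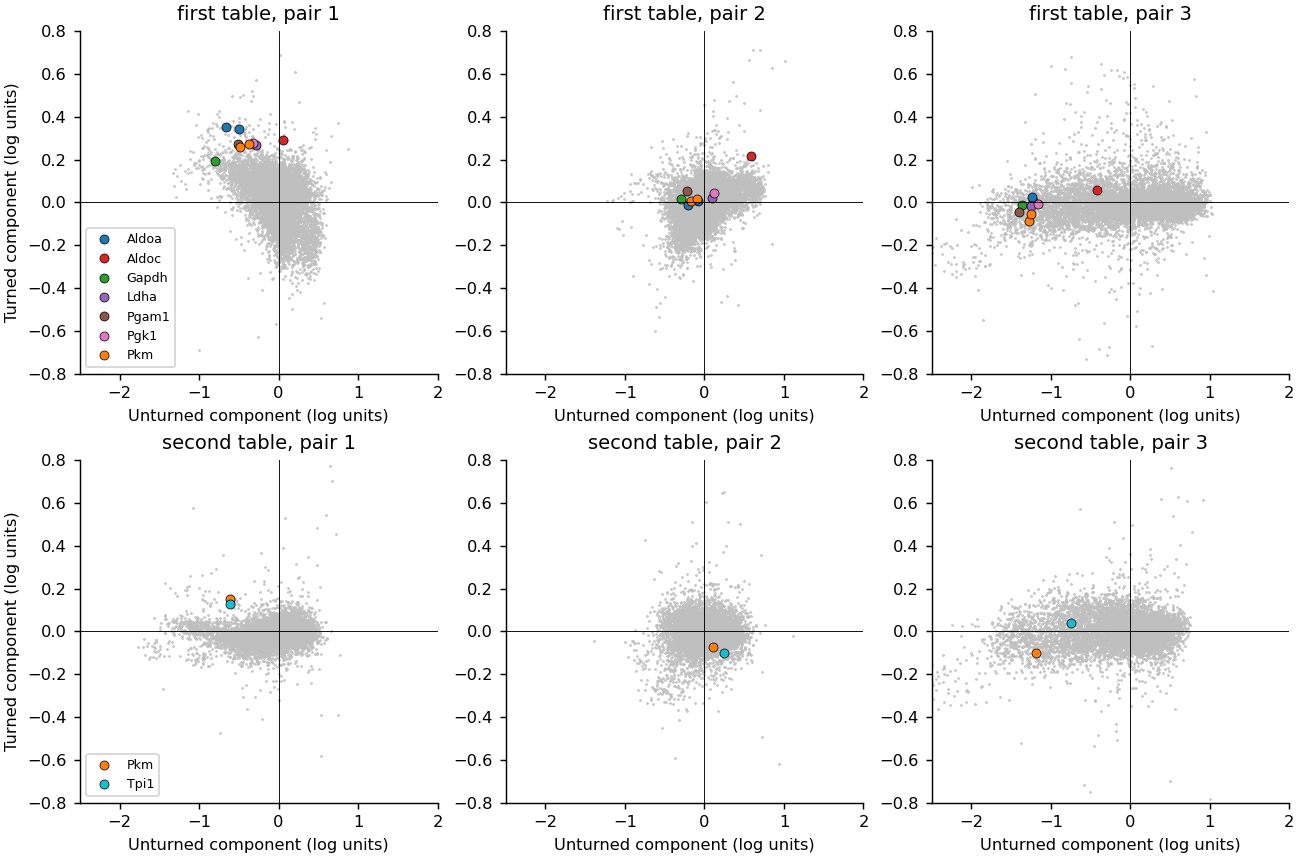
Turned against unturned component, in log ratio units of unstated base, for each slide pair of both tables. Grey points are all 7680 probes and coloured points the member probes, 1 colour for each gene; points beyond the axes are not drawn. In pair 1 of the first table the grey cloud slopes downward (r = -0.46). The members lie above its trend there, Gapdh by only 0.01.

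The slope was removed by a lowess curve of the turned on the unturned component within each pair, a step chosen after seeing the data. In pair 1 the first-table members then had a median of 0.20, with 9 of 9 positive. Aldoc was highest at 0.30, against 0.29 before, and Gapdh lowest at 0.01, against 0.20. Aldoa had 0.22 and 0.20, against 0.34 and 0.35. Pgk1 and Ldha had 0.20 each, against 0.28 and 0.27. Pkm had 0.14 and 0.18, against 0.26 and 0.27, and Pgam1 had 0.15, against 0.27. The pair 1 values of 8 of the 9 first-table probes were thus lower without the slope, and nearly all of that of Gapdh was gone. Tpi1 and Pkm of the second table had 0.15 and 0.17, against 0.13 and 0.15. Scaling to a common spread gave 0.11 to 0.34 in the first table and quantile normalization 0.03 to 0.42, with 9 of 9 positive in each. The lowest first-table member did not keep its place among all probes in pair 1. The share of probes above it was 45.8% without the slope, 19.5% with scaling and 46.6% with quantile normalization, against 4.43% before. As deposited, without centring, pair 1 values were 0.12 to 0.28 in the first table, where the median of all probes was -0.05, and 0.21 to 0.23 in the second, where it was 0.07. The mean over pairs was less stable: uncentred, the all-probe median moved to -0.128 (first table) and -0.0543 (second table), and 10 of the 11 members then had a negative mean, Aldoc being the exception at 0.06.

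Other genes of the pathway, from a list of isozymes, regulators and transporters, had a lower median in pair 1. On the first platform 6 such genes had medians of 0.10, 0.04 and 0.04 in pairs 1, 2 and 3, and 5 of the 6 means were positive. The highest, named after its value was seen, was Pfkl, a subunit of phosphofructokinase, with 0.21 in pair 1, above Gapdh, and Slc16a3, a lactate exporter named likewise, followed with 0.16. The glucose transporters Slc2a1 and Slc2a3 had 0.07 and 0.09 in pair 1, and Slc16a1, a monocarboxylate carrier that exports lactate, had 0.12. On the second platform 5 genes had medians of -0.002, -0.02 and 0.07. Ldhb, the other main lactate dehydrogenase subunit, had 0.002 in pair 1 there, Hk1, a hexokinase, had -0.002, and Bpgm, which makes 2,3-bisphosphoglycerate in red cells, had -0.08. With limma 0 of 8 first-table and 0 of 6 second-table probes of this list were called in either component.

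Neighbouring pathways of carbon metabolism had medians nearer to 0 than the members in pair 1, though single genes did not. Genes of pyruvate dehydrogenase and the citric acid cycle (13 measured on the first platform, 12 on the second) had medians of 0.02 and -0.04. Mdh1, the cytosolic malate dehydrogenase, had 0.16 in pair 1 of the first table, and Cs, citrate synthase, and Sucla2 had 0.09 each. Pdk1 also had 0.16 there, while Pdha1 and Pdhx had -0.13 and -0.12. In the second table Mdh2 and Idh3g had -0.08 each in pair 1 and Dld had -0.07. The pentose phosphate and gluconeogenesis list had -0.04 and -0.005 over 5 genes in each table. Tkt, transketolase, had 0.12 on the first platform and -0.001 on the second platform. Fbp2 and G6pc3 had -0.06 each on the first platform, and Rpia and Taldo1 had -0.03 and -0.04 on the second. Rpe was higher, with 0.15, 0.11 and 0.22 in pairs 1, 2 and 3 of the first table. None of these probes was called with the turn. Without it, 1 of 2 first-table probes of Tkt was called (-1.17, limma adjusted p = 0.0058), while the other was not (-0.31, adjusted p = 0.552).

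Hypoxia targets outside glycolysis are known, like the enzymes, as genes that HIF-1 can induce. The list also held Hif1a, the gene of a HIF-1 subunit, which had the lowest value of the list in pair 1 of the first table, -0.15. Car9 and P4ha2 had 0.16 and 0.13 there. The median of the list in pair 1 was 0.12 over 9 genes of the first table and 0.03 over 3 of the second. After the slope was removed the first-table median was 0.06, against 0.20 for the members. Bnip3l, a mitophagy receptor, had 0.36 in pair 1 of the first table, as high as Aldoa, with -0.004 and -0.07 in pairs 2 and 3, but 0.03 in pair 1 of the second table. Ero1a, an oxidase of the endoplasmic reticulum, had 0.15. Ak4, a mitochondrial adenylate kinase, had 0.12, and 1 of its 2 first-table probes was called without the turn (-1.71, limma adjusted p = 2.05e-04) and the other not (-0.11, adjusted p = 0.922). No probe of the list was called with the turn.

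Abundant transcripts of other classes were also positive in pair 1 of the first table. The median was 0.18 for 34 cytosolic ribosomal protein genes and 0.11 for 8 cytoplasmic actins and tubulins, below the 0.27 of the member genes. After the slope was removed these medians were 0.02 and -0.02, against 0.20 for the members. In pair 1 of the second table they were 0.03 over 59 genes and -0.05 over 2, against 0.14. Without the turn their first-table means had medians of -0.80 and -0.68 against -0.61 for the members, and 24 of 52 ribosomal and 9 of 22 actin and tubulin probes were called, all negative. The part of abundance or of signal strength in the members' values was not tested, since spot intensities were not used here.

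**Figure D4:**
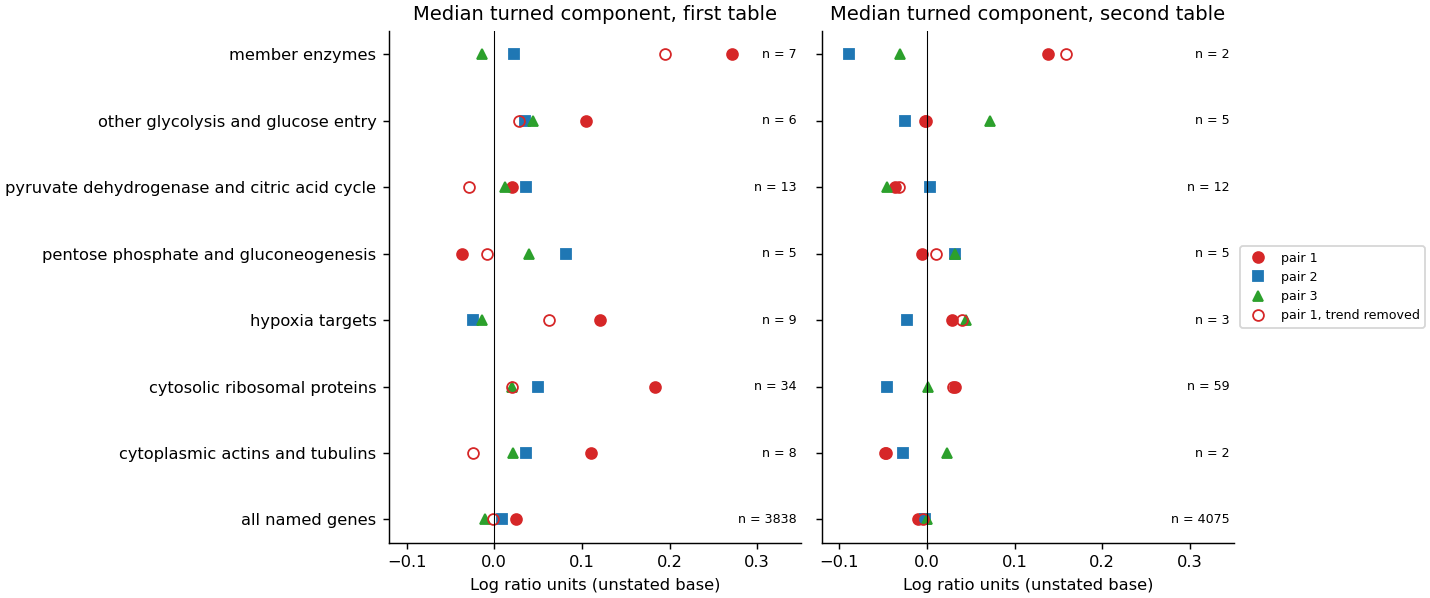
Median turned component of the member enzymes and of other gene lists by slide pair, in log ratio units of unstated base, first table left and second right; n is the number of genes. Filled markers are pairs 1 to 3 as measured, and open circles are pair 1 after the slope on the unturned component was removed. In the first table the ribosomal median of pair 1 falls from 0.18 to 0.02 and that of the members from 0.27 to 0.20.

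Markers of other cell types that whole embryos can hold had their own values in pair 1. On the first platform the 5 visceral endoderm markers had -0.08 as their median, the 4 markers of trophoblast and decidua had 0.11, and Gata1, the only primitive erythroid marker measured, 0.01. In the second table the medians were -0.07 over 4 erythroid genes, -0.008 over 2 endoderm genes and 0.03 for Krt18, a keratin of trophoblast and other epithelia. No marker probe was called in either component, and the part of these cells in the members' values was not tested.

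Over the 12 arrays of the first table, each member was compared with the median of the other members. Pearson's r ran from 0.96 to 0.99 for 8 of the 9 probes and was 0.88 for Aldoc. Many probes share such a profile: 5% of all named genes had an r above 0.966 with the median member. The genes most like it were Ppp2r2d, a phosphatase subunit (r = 0.993), Dcbld2 (0.992), the ribosomal protein gene Rps26 (0.992), Sh3bgr (0.992) and Rpl37a (0.991). Ppp2r2d had turned components of 0.29, 0.02 and -0.005 in pairs 1, 2 and 3, beside medians of 0.27, 0.02 and -0.01 for the member probes. In the second table the closest were Gm5177 (0.996), Rpl31 (0.990), Rpl35a (0.988), Rpl24 (0.988) and Rplp2 (0.987), with 5% of genes above 0.955. Rpl31 had 0.05 in pair 1 there, below Tpi1 and Pkm. All correlations are across 12 arrays that share slides, and they are a description only.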

How the data were processed

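The authors deposited 2 tables of processed values, which are unit-free score values: log ratios of the 2 channels with base, numerator and turning of swapped slides not stated. Base 10 was set aside because the highest value, 7.71, exceeds the log10 of a 16-bit range, 4.82. The sources used here name no scanner software, background correction or normalization. Intensities and flags were not used, so no probe was weighted by its signal, and precision rests on the spread between 3 slide pairs. No value was missing and none was filtered.

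Here each array was centred on its median (deposited medians -0.305 to 1.12 and 0.272 to 2.10), and the 2 arrays of a slide were averaged. Turned and unturned components of 3 pairs were tested against 0 in each table with limma 3.58.1 (lmFit, eBayes, R 4.3.3). Adjustment was by Benjamini-Hochberg over 7680 probes, threshold 0.05. A check on simulated data planted effects above every turned mean of the members. It does not show whether effects of their size would be called. The slide pair is the replicate block: slides of a pair share a treatment number and a slide-number label in their titles, which do not say that the RNAs were the same, and their deviations correlated (r of 0.473 to 0.928 for the first table, 0.688 to 0.930 for the second).

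Of 15360 probes, 9684 had 1 gene symbol, 502 several and 5174 none. Named are all measured members, up to 3 genes of a list per table with the largest unturned component (probes of a gene averaged), and the 5 genes per table most like the median member. Pfkl, Slc16a3, Pdk1, Pdha1, Pdhx, Rpe, Hif1a, Car9 and P4ha2 fall outside this rule. Members and lists were chosen with earlier results of these data known. Alternatives were no centring, a common spread, quantile normalization, single arrays, 1 orientation, pairs left out, medians, gene means, no block and, chosen after seeing the data, removal of a lowess trend (span 0.3).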

Additional observations from a re-analysis of the deposited data

How the results depend on the processing

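The log base, the numerator and the turning of swapped slides limit every sign, and 3 pairs with SDs above most means limit every size; signal over background is unknown. Counts of probes called were as follows. With the turn, the first table had 0, and 33 as deposited, 24 to 30 without 1 of the pairs, 174 with treated RNA in channel 1 only and 668 with it in channel 2 only; the second had 0, and 1 as deposited and 0 to 58 without 1 of the pairs. Without the turn, the first table had 219, and 0 as deposited, 1099 with a common spread, 917 with quantile normalization, 49 to 771 without 1 of the pairs, 860 with no replicate block and 1250 from single arrays; the second had 0, and 6880, 270, 466, 84 to 1872, 545 and 1783 in the same order. As deposited, the unturned component of the second table had all-probe medians of 1.62, 0.512 and 1.97 in pairs 1, 2 and 3. The 6880 calls there hold that offset, and counts from 1 orientation hold the unturned component by construction. The cause of the other moves was not tested.

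Among members, 131 of the alternative values with the turn kept their direction and side of the threshold, 28 changed sign and 6 newly passed, the last all with treated RNA in channel 2 only. Without the turn 100 kept them, 27 newly passed, 2 no longer passed and 3 changed sign. Both counts of kept values include medians over pairs and gene means, 11 each. These had no test, so only their direction was compared. A gene mean equals the probe value for a gene with 1 probe in a table. The fits with no replicate block and from single arrays return the main means by construction. As deposited, the turned means were -0.0307 for Pgam1, -0.0637 and -0.0446 for Pkm, -0.0179 for Pgk1, -0.0575 for Gapdh, -0.00413 and -0.000717 for Aldoa, -0.0323 for Ldha and -0.0313 for Tpi1. With treated RNA in channel 1 only they were -0.615 for Pgam1, -0.580 and -0.493 for Pkm, -0.349 for Pgk1, -0.753 for Gapdh, -0.482 and -0.577 for Aldoa, -0.390 for Ldha and -0.349 for Tpi1. Such means hold the unturned component by construction. Over the fits without 1 of the pairs, the turned means ran from -0.0404 to 0.134 and from -0.0180 to 0.145 for the first-table Pkm probes, from -0.0311 to 0.0835 for Tpi1 and from -0.0877 to 0.0378 for Pkm 5176, and the unturned mean of Aldoc ran from -0.182 to 0.326. Pkm 5176 turned positive at 0.0038 with a common spread, 0.00378 with quantile normalization, 0.00349 from second arrays, 0.552 with treated RNA in channel 2 only and 0.00494 with the trend removed. Without the turn and as deposited, Tpi1 had 0.999 and Pkm 5176 had 0.809. The fit with no replicate block changed no call with the turn, and without it newly called 2 members.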
